A study of Mus musculus with 7 samples.

Results

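Kidneys of cystinuric mice given L-ergothioneine, a dietary antioxidant that holds sulfur, were compared with untreated kidneys for 8 genes that handle urea and organic osmolytes in the renal medulla. The 8 genes were taken by name and mapped to the Ensembl identifiers of the deposited tables: the urea transporters Slc14a2 and Slc14a1, the osmolyte transporters Slc5a3, Slc6a6 and Slc6a12, the sorbitol-forming enzyme gene Akr1b3, the tonicity-sensing transcription factor gene Nfat5 and the kinase gene Sgk1. They are 8 of the 45706 genes in the tables, and all 8 had enough counts to be tested, as did 15399 genes in all. The samples were 4 kidneys of male Slc7a9-/- mice that drank water with L-ergothioneine at 16 mg/kg/day and 3 kidneys of untreated male Slc7a9-/- mice, all aged 6 months. The deleted gene is needed for cystine uptake in the proximal tubule; its loss in mice serves as a cystinuria model. Every mouse carried that deletion, so no value sets the model against wild type. The labels do not give the allele, the length of the treatment, litter, cage or time of collection.

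Urine is concentrated in the medulla, where salt and urea accumulate to levels that would shrink ordinary cells. Urea is moved by SLC14A2 (UT-A) in the inner medullary collecting duct and the descending thin limb, and by SLC14A1 (UT-B) in the descending vasa recta and in red blood cells. Medullary cells balance the salt outside with organic osmolytes: myo-inositol imported by SLC5A3, taurine by SLC6A6, betaine by SLC6A12, and sorbitol made by aldose reductase, the product of Akr1b3. NFAT5, also called TonEBP, raises transcription of these osmolyte genes when tonicity rises, and SGK1 is a kinase induced by corticosteroids and by osmotic stress that acts on epithelial sodium transport.

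NFAT5 binds the tonicity-responsive enhancer (TonE), which opens with the letters TGGAAA, and promoter windows from 250 bases before to 50 bases after the start were searched for it. RefSeq windows (GRCm38.p6) were matched for 4 of the 8 genes, Slc5a3, Slc6a12, Nfat5 and Sgk1, with 13 windows in all because Slc6a12 and Sgk1 have several starts. On both strands, 3 of the 13 windows held TGGAAA and 1 held the TonE consensus, of which TGGAAA is the first part, while 21.4% and 4.96% of all 32851 windows held them. The TonE match was in 1 of the windows of the betaine transporter gene Slc6a12 (chr6:121342324-121342623, plus strand), at chr6:121342499-121342509, beginning 75 bases before that start. It is shown with a window of Sgk1 (chr10:21993640-21993939, plus strand) that held TGGAAA without the rest of the consensus. Capitals mark the TonE match in the first sequence and TGGAAA in the other.
Slc6a12: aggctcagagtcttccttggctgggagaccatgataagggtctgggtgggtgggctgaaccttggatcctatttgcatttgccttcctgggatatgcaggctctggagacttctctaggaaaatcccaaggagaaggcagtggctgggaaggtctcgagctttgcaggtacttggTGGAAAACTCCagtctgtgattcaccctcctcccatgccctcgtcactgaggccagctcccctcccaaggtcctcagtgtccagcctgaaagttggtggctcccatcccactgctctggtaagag
Sgk1: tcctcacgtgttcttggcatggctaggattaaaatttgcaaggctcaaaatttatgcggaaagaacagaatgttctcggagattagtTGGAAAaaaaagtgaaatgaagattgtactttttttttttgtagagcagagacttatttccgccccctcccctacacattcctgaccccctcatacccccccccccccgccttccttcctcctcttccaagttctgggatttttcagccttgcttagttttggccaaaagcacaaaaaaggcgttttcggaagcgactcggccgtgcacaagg

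The libraries held 17296632 to 19791575 counts in the ergothioneine group and 14843899 to 17793544 in the untreated group. Slc7a9 itself had 103 to 166 counts in ergothioneine libraries and 95 to 105 in untreated ones. The labels do not say which part was disrupted, so these reads check nothing. RNA came from frozen kidney and the labels name no zone, so levels are averages over cortex and medulla. Markers of the collecting duct and the thick ascending limb were present in every library. Aqp2 of the collecting duct had 113 to 162 CPM (counts scaled to a common library size) in ergothioneine kidneys and 102 to 116 CPM in untreated ones. Slc12a1 of the thick ascending limb had 1513 to 1787 and 1202 to 1378 CPM. How much inner medulla each sample held was not measured. Short structural RNA took 37.4% to 48.4% of TPM (a level per transcript length) in the 4 ergothioneine libraries, 12.03% and 16.07% in untreated libraries 1 and 2 and 48.6% in untreated library 3. TPM of other genes is therefore not comparable between libraries, and group differences below come from the counts.

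Per transcript length, the 8 genes spanned a wide range within each kidney. Slc6a6, the taurine transporter gene, ranked highest of the 8 in all 7 libraries, at 115 to 150 TPM in ergothioneine kidneys and 132 to 183 TPM in untreated ones. Slc5a3 (45.3 to 70.7 and 64.9 to 115 TPM), Akr1b3 (42.4 to 68.1 and 70.9 to 81.6 TPM) and Sgk1 (43.8 to 50.5 and 31.8 to 97.9 TPM) came next. These 3 changed places from library to library, so their order was not fixed beyond the spread. Nfat5 followed at 26.6 to 31.5 TPM in ergothioneine kidneys and 40.1 to 59.0 TPM in untreated ones, below all of these except Sgk1 in untreated library 3. The urea transporter genes and Slc6a12 stood lowest and kept the same places in all 7 libraries: Slc14a2 at 7.64 to 8.57 and 4.39 to 9.96 TPM, Slc14a1 at 1.22 to 1.62 and 1.21 to 2.08 TPM, and Slc6a12 at 0.61 to 1.04 and 0.81 to 1.76 TPM.

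**Figure D1:**
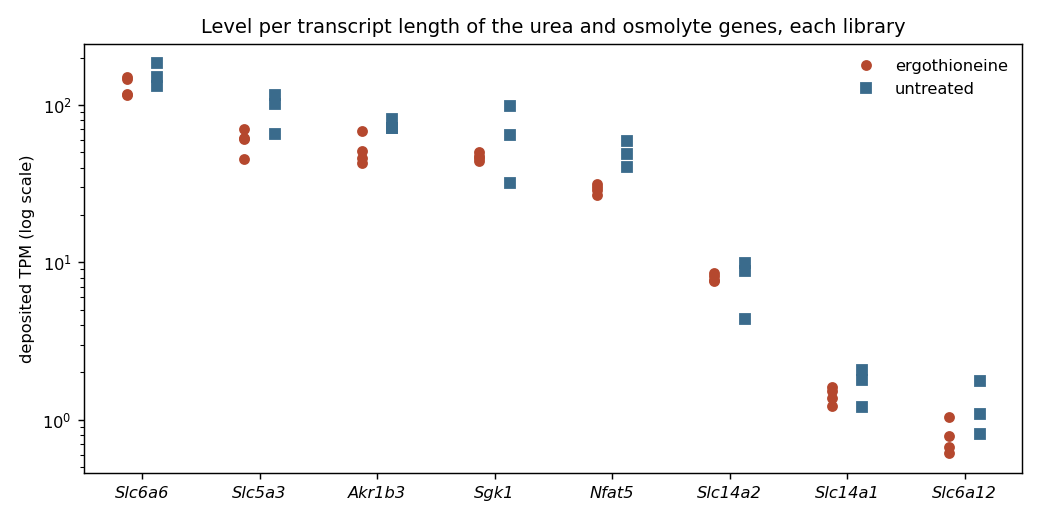
Deposited TPM on a log axis for the 8 genes, ordered by their mean, with a circle per ergothioneine kidney (n = 4) and a square per untreated kidney (n = 3). Slc6a6 is highest at 115 to 183 TPM and Slc6a12 lowest at 0.61 to 1.76 TPM.

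Of the 8 genes, 1 passed the test between the groups (edgeR quasi-likelihood test, Benjamini-Hochberg adjustment over all 15399 genes, threshold 0.05), and it was higher with ergothioneine. Among all genes tested 7.16% passed, 3.58% higher and 3.57% lower, so 1 of 8 is near that background. The median log2 fold change was 0.13 over the 8 genes and 0.00 over all genes. By sign, 5 of the 8 were positive and 3 negative. By CPM, the groups were apart for 2 of the 8, Slc14a2 and Nfat5, while 18.6% of all genes had groups apart. At an unadjusted p under 0.05 there were 2, Slc14a2 and Slc5a3. Slc5a3, at an unadjusted edgeR p of 0.0409, ranked 2956 by p among all 15399 genes, so at least 2956 genes were under 0.05. On log2(TPM + 1), tested with limma, 2 of the 8 passed, Slc5a3 and Nfat5, both lower, where 9.82% of all genes passed, 0.306% higher and 9.52% lower. On log2(TPM + 0.1) the same 2 passed, where 9.1% of all genes did, 0.314% higher and 8.79% lower.

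**Figure D2:**
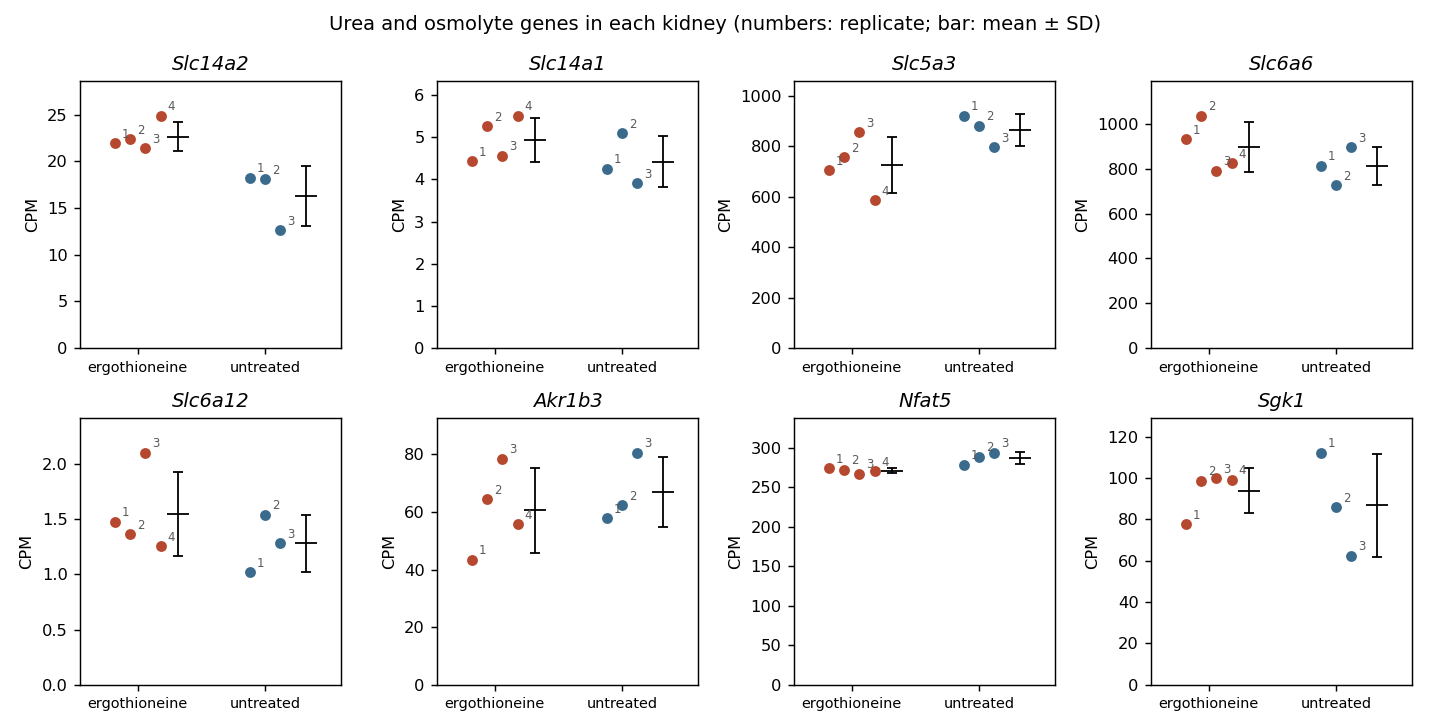
CPM of each of the 8 genes in every kidney, ergothioneine (n = 4) left of untreated (n = 3), with replicate numbers and the mean ± SD as a bar. The groups are apart for Slc14a2 (21.4 to 24.9 against 12.6 to 18.2 CPM) and Nfat5 (267 to 274 against 278 to 294 CPM) and overlap for the other 6.

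**Figure D3:**
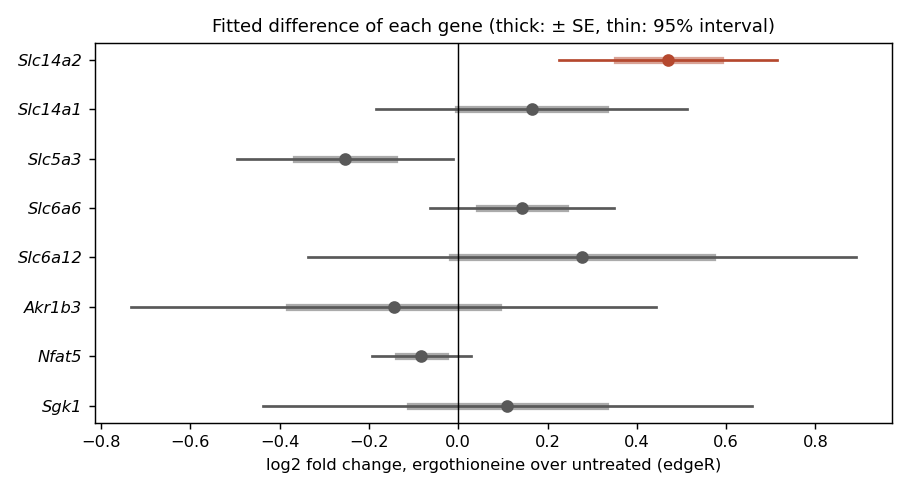
Fitted log2 fold change of ergothioneine over untreated for each gene, with ± SE as a thick line and the 95% interval as a thin line. Slc14a2, at 0.47 with an interval of 0.23 to 0.71, is the 1 gene that passed the adjusted threshold, and the interval of Nfat5 (-0.19 to 0.03) is the narrowest.

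Slc14a2, which encodes the urea transporters of the collecting duct and thin limb (chromosome 18, 78146148 to 78596942, minus strand, GRCm38), was higher in ergothioneine kidneys. Its level was 21.9, 22.4, 21.4 and 24.9 CPM in ergothioneine libraries 1 to 4, against 18.2, 18.1 and 12.6 CPM in untreated libraries 1 to 3. All 4 ergothioneine kidneys lay above every untreated one, and untreated library 3 lay well below the other two. The means were 22.6 ± 1.54 CPM with ergothioneine and 16.3 ± 3.20 CPM untreated (SD, n = 4 and 3), giving a log2 fold change of 0.47 ± 0.12 (SE, 1.39-fold; edgeR adjusted p = 0.0201). The call was lost without untreated library 3 (log2 fold change 0.32 ± 0.10, adjusted p = 0.0705), and narrowly without ergothioneine library 2 (0.48, adjusted p = 0.0528) or 4 (0.42, adjusted p = 0.0511). On log2(TPM + 1) it was 0.11 ± 0.20 (limma, adjusted p = 0.633), while the median of all genes was -0.33, and with TPM rescaled to protein-coding genes 0.47 ± 0.13 (adjusted p = 0.0826). The counts merge the transcripts of the gene, so the collecting duct and thin limb forms were not separated.

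**Figure D4:**
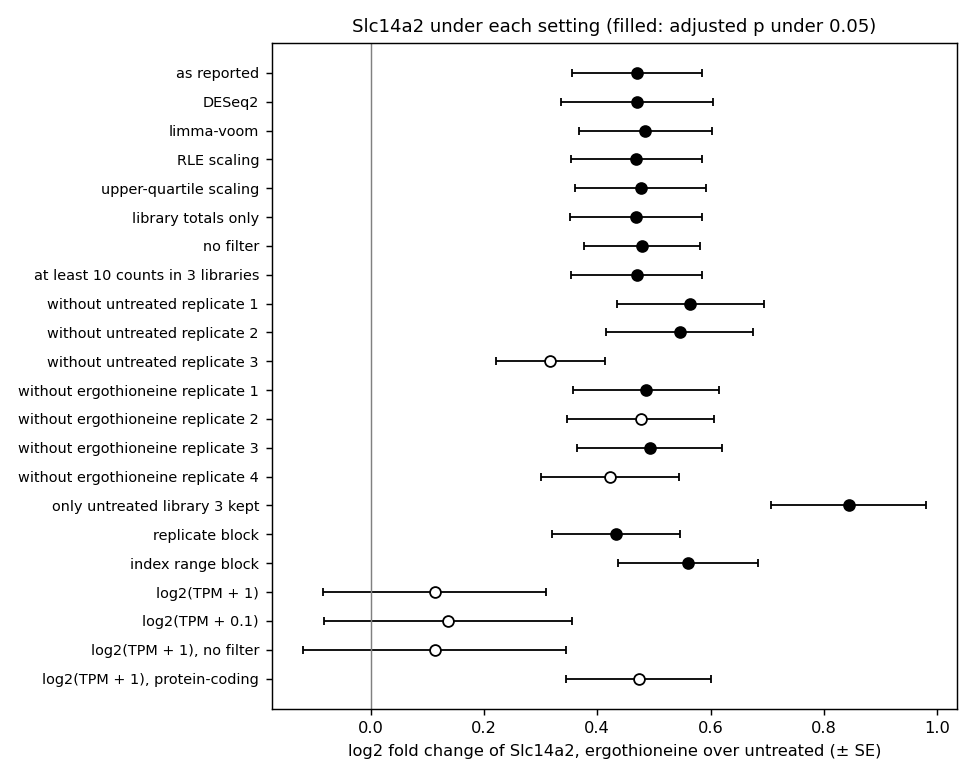
Log2 fold change of Slc14a2, ergothioneine over untreated, with its SE, as reported (top) and under each alternative; filled circles passed an adjusted p of 0.05. All values are positive, from 0.11 on log2(TPM + 1) to 0.84 against untreated library 3 alone, where that lone library is assumed to vary like the ergothioneine ones.

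Markers of thin limb, collecting duct, medullary stroma and endothelial cells were set beside Slc14a2. Fst, which encodes follistatin and marks the thin limb, rose, at 2.68 to 5.18 CPM with ergothioneine and 0.834 to 1.98 CPM untreated (edgeR adjusted p = 0.0150), and it had no call when untreated library 2 or 3 was left out. Of 11 collecting duct principal cell markers 0 passed by edgeR, DESeq2 or limma-voom and 0 had an unadjusted p under 0.05, and their sum overlapped between the groups (497 to 539 and 483 to 527 CPM). Their mean log2 CPM, in which each marker weighs the same, was apart (4.686 to 4.735 with ergothioneine and 4.585 to 4.67 untreated). In untreated library 3 the sum was 527 CPM, the highest of the untreated ones. The mean log2 CPM of that library was 4.636, below the 4.67 of untreated library 2. The sums of the 7 medullary stroma markers (88.2 to 104 and 80.9 to 95.3 CPM) and of the 10 endothelial ones (547 to 585 and 536 to 595 CPM) overlapped as well. In each of these lists 0 passed by edgeR, DESeq2 or limma-voom, and 1 had an unadjusted p under 0.05. The part of the thin limb and principal cell markers in the Slc14a2 result was not tested. In whole kidney, fewer cells of a type and less RNA per cell cannot be told apart.

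**Figure D5:**
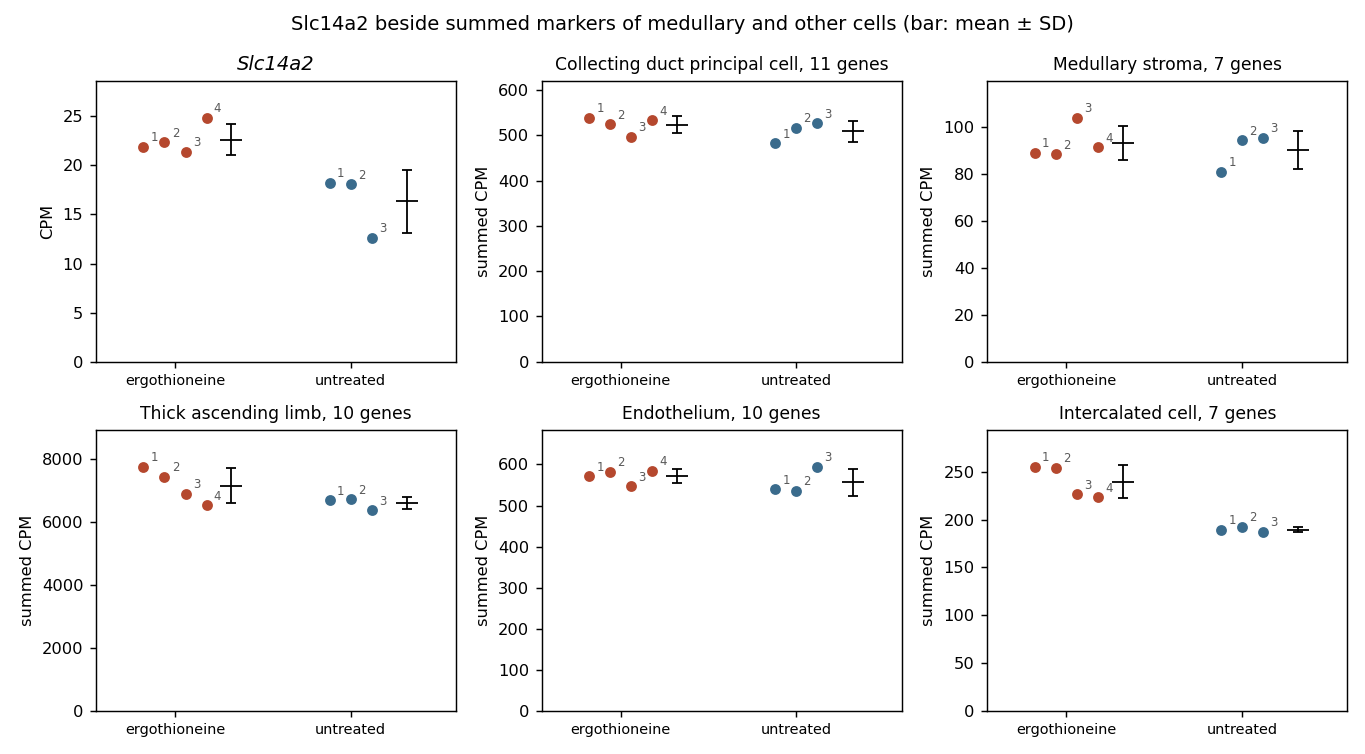
CPM of Slc14a2 and summed CPM of 5 marker lists in every kidney, ergothioneine (n = 4) left of untreated (n = 3), with the mean ± SD as a bar. The groups are apart for Slc14a2 (21.4 to 24.9 against 12.6 to 18.2 CPM) and for the intercalated cell sum (223 to 255 against 187 to 192 CPM), and overlap for the other 4 sums.

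Slc14a1, the neighbouring gene for the vasa recta and red cell urea transporter (chromosome 18, 78100091 to 78142119, minus strand), was scarce, with 61 to 104 counts in a library. It had 4.43, 5.26, 4.56 and 5.51 CPM in ergothioneine libraries 1 to 4, against 4.25, 5.09 and 3.91 CPM in untreated libraries 1 to 3. The groups overlapped, and the log2 fold change of 0.16 ± 0.17 did not pass (SE; edgeR adjusted p = 0.644, 95% interval -0.18 to 0.51). That interval includes the value of Slc14a2, and the difference between the 2 genes was not tested. Red blood cells also carry this transporter: Alas2, the erythroid heme enzyme gene, had 8.52 to 12.6 CPM in ergothioneine kidneys and 7.05 to 16.1 CPM in untreated ones. The globin genes reached no more than 26.8 counts in any kidney, after a depletion kit designed to remove globin RNA.

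Slc5a3, which encodes the sodium and myo-inositol cotransporter (chromosome 16, 92058322 to 92087473, plus strand), was the second most abundant member in most kidneys. Its level was 707, 757, 857 and 586 CPM in ergothioneine libraries 1 to 4, against 921, 882 and 797 CPM in untreated libraries 1 to 3. Ergothioneine library 3 lay above untreated library 3, and ergothioneine library 4 was lowest. The means were 727 ± 113 CPM with ergothioneine and 867 ± 63.5 CPM untreated (SD, n = 4 and 3), with overlap between the groups. The log2 fold change of -0.25 ± 0.11 (SE) did not pass (edgeR adjusted p = 0.213, unadjusted p = 0.0409). Without ergothioneine library 3 it passed as lower (-0.35 ± 0.09, adjusted p = 0.0363). Slc5a3 shares 159 of its 10913 exon bases with Mrps6, a mitochondrial ribosomal protein gene on the same strand, so a small part of its reads cannot be assigned to either gene by sequence alone.

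Slc6a6, the taurine transporter gene (chromosome 6, 91684053 to 91759066, plus strand), had 931, 1036, 791 and 826 CPM in ergothioneine libraries 1 to 4, against 813, 726 and 896 CPM in untreated libraries 1 to 3. The groups interleaved, with the highest and second highest values in ergothioneine libraries 2 and 1 and the lowest in untreated library 2. The log2 fold change of 0.14 ± 0.10 did not pass (SE; edgeR adjusted p = 0.454, 95% interval -0.06 to 0.35).

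Slc6a12, the betaine and GABA transporter gene with the TonE match shown above (chromosome 6, 121343076 to 121365775, plus strand), was the rarest of the 8, with 18 to 36 counts in a library. It had 1.48, 1.37, 2.10 and 1.254 CPM in ergothioneine libraries 1 to 4, against 1.02, 1.54 and 1.28 CPM in untreated libraries 1 to 3. Ergothioneine library 3 was highest and the others mixed. At this depth no difference was detectable (log2 fold change 0.28 ± 0.29 (SE), edgeR adjusted p = 0.661), and the 95% interval ran from -0.34 to 0.89. Its close relative Slc6a13, a transporter of GABA and taurine, was far more abundant and rose, at 105 ± 7.42 CPM with ergothioneine and 84.2 ± 3.74 CPM untreated (SD, n = 4 and 3; fitted log2 fold change 0.32 ± 0.07, adjusted p = 0.00601). On log2(TPM + 1) Slc6a13 stood at -0.03.

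Akr1b3, the aldose reductase gene (chromosome 6, 34302434 to 34317478, minus strand), varied widely among kidneys of the same group. Its level was 43.4, 64.5, 78.5 and 55.7 CPM in ergothioneine libraries 1 to 4, against 57.9, 62.2 and 80.6 CPM in untreated libraries 1 to 3. The lowest value was in ergothioneine library 1 and the highest in untreated library 3. Its within-group SD of log2 CPM was 0.32, larger than that of 98.9% of the 1000 genes nearest to it in level. The log2 fold change was -0.14 ± 0.23 (SE; edgeR adjusted p = 0.809) and moved to 0.01 without untreated library 3. Of its transcripts' 50-base stretches 9.48% also occur in transcripts of other genes, 8.73% in the predicted gene Gm6644, and its expected counts were not whole, so its level is uncertain by what the authors' counting gave to such copies. The related reductase genes Akr1b7 (0.760 to 1.52 CPM with ergothioneine and 0.850 to 1.03 CPM untreated), Akr1b8 (1.09 to 1.64 and 1.13 to 2.12 CPM) and Akr1b10 (15.2 to 20.9 and 18.3 to 20.6 CPM) did not pass either (edgeR adjusted p = 0.661, 0.879 and 0.855).

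Among 24 further genes of osmolyte metabolism and transport 2 rose and 1 fell (12.5% called, against 7.16% of all genes tested). These counts stayed at 2 to 4 and at 1 with single libraries left out, the 4 without ergothioneine library 4. Besides Slc6a13, the gene that rose was Lrrc8d, which encodes a subunit of the volume-regulated anion channel that lets taurine and other osmolytes out of swollen cells. It had 166 ± 8.06 CPM with ergothioneine and 136 ± 4.65 CPM untreated (SD, n = 4 and 3; fitted log2 fold change 0.29 ± 0.06, edgeR adjusted p = 0.00485). Slc6a20a, an imino acid transporter of the proximal tubule that also carries betaine, fell to 19.5 ± 0.725 CPM with ergothioneine, against 28.5 ± 4.20 CPM untreated (-0.55 ± 0.09, adjusted p = 0.00155). The other 21, among them the genes for myo-inositol breakdown (Miox), sorbitol oxidation (Sord) and betaine synthesis (Chdh), did not pass.

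Nfat5 (chromosome 8, 107293470 to 107379517, plus strand) was the steadiest of the 8 genes. Its level was 274, 272, 267 and 270 CPM in ergothioneine libraries 1 to 4, against 278, 289 and 294 CPM in untreated libraries 1 to 3. Every ergothioneine kidney lay below every untreated one, although by a few percent. Its within-group SD of log2 CPM was 0.03, and 1.90% of the 1000 genes nearest in level had a smaller one. The log2 fold change of -0.08 ± 0.05 did not pass (SE; edgeR adjusted p = 0.410, 95% interval -0.19 to 0.03). On log2(TPM + 1) it was -0.72 ± 0.20 and passed as lower (limma, adjusted p = 0.0104), beside -0.33 for the median of all genes. With TPM rescaled to protein-coding genes it was -0.36 ± 0.11 and did not pass (adjusted p = 0.125). The calcium-regulated relatives Nfatc1, Nfatc2, Nfatc3 and Nfatc4 had log2 fold changes of -0.18, 0.11, 0.02 and -0.21, none past the threshold (edgeR adjusted p = 0.261 to 0.925).

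Of 24 tested tonicity response genes and regulators of NFAT5, 1 rose and 4 fell by edgeR, while DESeq2 called 1 higher and 7 lower, and 11 had an unadjusted p under 0.05. By edgeR 20.8% of the list passed, against 7.16% of all 15399 genes, of which at least 2956 had an unadjusted p under 0.05. Mapk14, which encodes the p38 kinase that signals osmotic stress, fell to 133 ± 5.78 CPM with ergothioneine, against 173 ± 10.6 CPM untreated (SD, n = 4 and 3; fitted log2 fold change -0.37 ± 0.06, edgeR adjusted p = 0.0007). Ddx5, an RNA helicase gene, fell to 532 ± 16.8 CPM, against 639 ± 19.1 CPM untreated (-0.26, adjusted p = 0.00933). The small heat shock protein gene Hspb1 fell to 10.4 ± 3.14 CPM, against 20.5 ± 1.03 CPM untreated (-0.98 ± 0.18, adjusted p = 0.0102), and its adjusted p was 0.0503 when untreated library 2 was left out. The fourth was Hspa4l, a heat shock protein gene induced by osmotic stress (-0.33 ± 0.08, adjusted p = 0.0142), which is named after its value was seen. Ranbp3l, a relative of a nuclear export factor gene, rose to 53.8 ± 3.18 CPM, against 43.3 ± 3.00 CPM untreated (0.31, adjusted p = 0.0119), with no call without untreated library 3 (adjusted p = 0.0586). With single libraries left out 0 to 2 rose and 2 to 6 fell. The heat shock protein genes Hspa1a and Hspa1b had the most negative values of the list, -1.54 ± 0.39 and -1.36 ± 0.31, with groups apart, and did not pass (edgeR adjusted p = 0.0940 and 0.0714). They are near-identical copies, so the split of reads between them is uncertain, and they are named after their values were seen. The list's median log2 fold change was -0.03, near the 0.00 of all genes.

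Sgk1 (chromosome 10, 21882184 to 21999903, plus strand) had 77.7, 98.7, 99.9 and 99.1 CPM in ergothioneine libraries 1 to 4, against 112, 85.8 and 62.4 CPM in untreated libraries 1 to 3. Untreated library 1 lay above all 4 ergothioneine kidneys, untreated library 3 below them and untreated library 2 among them. The means were 93.8 ± 10.8 CPM with ergothioneine and 86.8 ± 25.0 CPM untreated (SD, n = 4 and 3). A log2 fold change of 0.11 ± 0.22 resulted (SE; edgeR adjusted p = 0.848, 95% interval -0.44 to 0.66). Without untreated library 3 it was -0.08. The paralogue Sgk2 was higher at 155 ± 14.5 CPM with ergothioneine, against 129 ± 1.07 CPM untreated (0.27 ± 0.07, adjusted p = 0.0222). Its call held in 2 of the 7 fits with a library left out, those without ergothioneine library 3 or 4, and its value on log2(TPM + 1) was -0.10. Sgk3 did not pass (46.1 ± 2.12 and 42.9 ± 0.746 CPM, adjusted p = 0.405).

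Around SGK1, 4 of 24 relatives, partners and corticosteroid-responsive genes rose and 4 fell by edgeR (33.3% called, against 7.16% of all genes tested). Sgk2 above is among the 4 that rose. DESeq2 called 8 of the list and limma-voom 6. This list, like the others, was chosen with earlier results of these data known, which limits the contrast with all genes. Ndrg1, which encodes a substrate of the kinase, was the most abundant of those named here and rose to 2792 ± 135 CPM with ergothioneine, against 1309 ± 187 CPM untreated (SD, n = 4 and 3; fitted log2 fold change 1.09 ± 0.09, edgeR adjusted p = 1.38e-06). Scnn1a, for the alpha subunit of the epithelial sodium channel, rose to 128 ± 16.0 CPM, against 99.2 ± 4.21 CPM untreated (0.37 ± 0.09, adjusted p = 0.0175; -0.007 on log2(TPM + 1)), but had no call when untreated library 2, untreated library 3 or ergothioneine library 1 was left out. Tsc22d3, the glucocorticoid-induced gene for GILZ, fell to 33.6 ± 5.44 CPM, against 57.1 ± 6.18 CPM untreated (-0.76 ± 0.13, adjusted p = 0.00589). The corticosteroid-responsive genes Fkbp5, Klf9 and Zbtb16 did not pass (-0.09, -0.18 and -0.86, edgeR adjusted p = 0.691, 0.521 and 0.266). They are named after their values were seen. Mtor, for the kinase of a complex upstream of SGK1, fell to 353 ± 15.8 CPM, against 455 ± 37.0 CPM untreated (-0.37, adjusted p = 0.00199). With single libraries left out 1 to 4 rose and 2 to 4 fell, 1 rising without untreated library 2, untreated library 3 or ergothioneine library 1. The list's median log2 fold change was 0.00.

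Of 22 genes of urea handling and its control by vasopressin, 18 were tested, 3 rose and 1 fell (22.2% of those tested, against 7.16% of all genes tested). Avpr1a, a vasopressin receptor gene, rose to 13.1 ± 2.17 CPM with ergothioneine, against 6.08 ± 0.260 CPM untreated (SD, n = 4 and 3; fitted log2 fold change 1.104 ± 0.14, edgeR adjusted p = 0.000121). Rhbg, for an ammonia channel of the distal nephron, rose to 29.4 ± 1.57 CPM, against 21.3 ± 1.13 CPM untreated (0.46, adjusted p = 0.00153). Aqp7, for a water and glycerol channel that also passes urea, rose to 27.8 ± 0.831 CPM, against 20.9 ± 1.94 CPM untreated (0.41, adjusted p = 0.0054). Rapgef3, for the cAMP-activated exchange factor EPAC1, fell to 102 ± 5.49 CPM, against 126 ± 11.5 CPM untreated (-0.30, adjusted p = 0.0109), with no call without untreated library 3 (adjusted p = 0.0582). The vasopressin receptor gene of the collecting duct, Avpr2, did not pass (0.21 ± 0.13, adjusted p = 0.418). The urea cycle genes Arg1, Otc and Cps1 and the channel gene Aqp9 had too few counts to be tested.

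Markers of other cells moved between the groups beside these genes. Over all genes tested, 3.58% passed as higher and 3.57% as lower by edgeR. Of 7 intercalated cell markers 4 rose, Slc4a1, Slc26a4, Atp6v1g3 and Atp6v0d2 (log2 fold change 0.38 to 0.63), and their list summed to 223 to 255 CPM in ergothioneine kidneys and 187 to 192 in untreated ones. When untreated library 3 or ergothioneine library 1 was left out, neither Atp6v1g3 nor Atp6v0d2 passed, and Atp6v1g3 also did not without untreated library 1. Of 10 thick ascending limb markers 2 rose, Slc12a1 (0.34) and Cldn10 (0.31), with sums of 6532 to 7753 and 6372 to 6723 CPM, and 0 rose without untreated library 3 or ergothioneine library 1 or 2. Of 6 straight proximal tubule markers 3 fell, Slc7a13, Atp11a and Slc5a8 (-0.36 to -0.56), with sums of 3085 to 3367 and 4194 to 4420 CPM. All 5 tested adipocyte markers fell, Plin1, Adipoq, Cidec, Fabp4 and Ucp1 (-0.67 to -4.65), with sums of 11.8 to 20.2 and 49.1 to 60.7 CPM. Of these 5, limma-voom called 4. Ucp1, at -4.65, is named after its value was seen. The leukocyte marker Ptprc fell (-0.53, 1 of 5), with list sums of 36.3 to 51.2 and 51.1 to 56.2 CPM. Gatm of the convoluted tubule (0.24, 1 of 7; sums of 16340 to 17820 and 16010 to 19360 CPM) rose, and kept the call in 1 of the 7 fits with a library left out. Of 5 distal convoluted tubule markers 0 passed by edgeR, 1 by DESeq2 and 1 by limma-voom, and 2 had an unadjusted p under 0.05. Their sums were apart, at 1374 to 1597 and 1136 to 1243 CPM, and Calb1, the calcium-binding protein gene, had a log2 fold change of 0.86 ± 0.19 (edgeR adjusted p = 0.0552). In the urothelium and erythroid lists 0 of 9 and 0 of 2 tested markers passed by edgeR, DESeq2 or limma-voom, and 0 had an unadjusted p under 0.05. The part of these cells in the values of the 8 genes was not tested.

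Likeness of other genes to each of the 8 was measured within groups across the 7 libraries, after each group's mean was subtracted from log2 CPM, and is given as a description. Among 10963 genes (10964 for Slc6a12) of sufficient level, the nearest to Slc14a2 were Rab5a, Wtap and Mtmr1 (Pearson r = 0.985, 0.985 and 0.982) and the nearest to Nfat5 were Zfp560, Vrk2 and Tspyl4 (0.992, 0.991 and 0.989). For Slc5a3 they were Fcf1, Npl and Rhob (0.995, 0.981 and 0.977), and for Sgk1 Prkca, Ccdc82 and Ttc13 (0.991, 0.987 and 0.976). Ptk2 was nearest to Slc14a1 (0.998), Zfp516 to Slc6a6 (0.989), Washc3 to Slc6a12 (0.989) and Lime1 to Akr1b3 (0.998). Each of the 8 had 66 to 114 genes with r over 0.9. These r values are the highest picked from many genes over 7 libraries, so they do not mark the named genes as partners. None of the 8 was among the nearest 3 of another, and Slc6a12, below the level required, could not be. With so many genes compared, this absence does not show whether the 8 vary together.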

How the data were processed

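Kidneys were frozen and their RNA was freed of ribosomal RNA and made into stranded libraries, per the labels' protocols. The authors deposited expected counts (3.61% of values not whole) and TPM values for 45706 genes. Per the submitters' processing notes the tools included STAR 2.7.10a, RSEM 1.3.1, Salmon 1.10.1 and the build GRCm38, with no roles given. Neither annotation release nor strand setting is given in the sources used here. Symbols and positions came from GENCODE M21, which held 45143 of the identifiers.

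Expected counts were rounded and tested with edgeR 4.0.16 (filterByExpr, TMM, robust quasi-likelihood F test, Benjamini-Hochberg, threshold 0.05). SE is the log2 fold change over the square root of F. CPM uses TMM library sizes. Groups followed the titles. P-values measure the spread among numbered males of a group. Intervals are at 95%.

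The genes, lists and alternatives were chosen with earlier results of these data known. Named by rule were the 8 genes, their relatives, up to 4 called genes per list and the 3 nearest genes. Some other list genes, such as Avpr2, Miox and Ucp1, are named outside this rule. 2 marker genes are not reported here, nor are counts or sums of the lists that held them. Alternatives were DESeq2 1.42.0, limma 3.58.1 (voom, and trend on log2(TPM + 1) or log2(TPM + 0.1)), other scalings and filters, blocks, and libraries left out. The code was tested on simulated data.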

Additional observations from a re-analysis of the deposited data

Results flagged for a closer look

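Sgk1 in ergothioneine library 1, at 77.7 CPM, lay apart from the other 3 ergothioneine kidneys, which held 98.7 to 99.9 CPM. The gap exceeded the limit of Dixon's test for 4 values. The test was made for 8 genes in that group, and chance flags about 1 in 20. Untreated library 3, at 62.4 CPM, was lower still.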

How the results depend on the processing

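Over the alternatives 141 of 168 values of the 8 genes kept their direction and their side of the threshold. All genes past the threshold numbered 1102, and 692 to 1103 with 1 library left out, 556 against untreated library 3 alone (this lone library assumed to vary like the ergothioneine ones), 64 on unfiltered log2(TPM + 1) and 275 on protein-coding TPM. Of the 8, 1 passed, 0 to 2 with 1 library left out, 2 on log2(TPM + 1) and log2(TPM + 0.1), both lower (of 13711 genes 1305 and 1205 were lower there and 42 and 43 higher), and 0 on unfiltered or protein-coding TPM. With 1 library left out the log2 fold changes ran from 0.32 to 0.56 for Slc14a2, -0.35 to -0.16 for Slc5a3, 0.09 to 0.27 for Slc14a1, 0.07 to 0.22 for Slc6a6, 0.10 to 0.43 for Slc6a12, -0.30 to 0.0105 for Akr1b3, -0.0795 to 0.34 for Sgk1, -0.33 to 0.12 for Akr1b8, -0.11 to 0.0382 for Akr1b10 and -0.0089 to 0.0315 for Nfatc3. On log2(TPM + 1) and log2(TPM + 0.1) Slc14a2 was 0.11 and 0.14 without a call, Slc5a3 -0.62 and -0.63 and Nfat5 -0.72 and -0.74 with one. There Slc14a1 was -0.13 and -0.20, Slc6a6 -0.22 and -0.23, Slc6a12 -0.30 and -0.55 and Sgk1 both times -0.32, against positive values from counts. The same held for Akr1b7 (-0.0496 and -0.10), Sgk3 (-0.25 and -0.27), Nfatc2 (-0.17 and -0.21), Nfatc3 (-0.33 and -0.35), Lrrc8d (-0.0126 and -0.0125), Slc6a13 (-0.0339 and -0.034), Ranbp3l (-0.0823 and -0.0842), Scnn1a (-0.007 and -0.0065), Slc12a1 (-0.0342 at both), Cldn10 (-0.0833 and -0.0838), Gatm (-0.13 at both) and Sgk2 (-0.10 at both). Without the filter the values at a pseudocount of 1 were the same, but Slc5a3 and Nfat5 had no call. On protein-coding TPM Slc14a2 was 0.47 without a call and Slc6a12 -0.15. The median gene stood at -0.33 on log2(TPM + 1) and near 0 on protein-coding TPM, and the cause of other changes was not tested.

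Replicate numbers are shared by the groups, but same-numbered libraries did not deviate together (r = 0.03, -0.07 and 0.00), and 0 of 3 untreated libraries correlated best with their own number. With the replicate block 809 genes passed, Slc14a2 was 0.43 (edgeR adjusted p = 0.0396), Akr1b8 0.0251, and no call of the 8 changed. Another block split libraries by name number, with untreated 1 and 2 and ergothioneine 1 on the high side. There 921 genes passed, Slc14a2 was 0.56 (edgeR adjusted p = 0.0126), Akr1b3 -0.37, and no call of the 8 changed. Untreated library 3 differed from untreated 1 and 2 by a chi-square per degree of freedom of 26.3 and 26.9, against 8.95 between those. Depth limits Slc6a12 and Slc14a1 most, at 18 to 36 and 61 to 104 counts.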
